A study of Penicillium oxalicum with 18 samples.

Results

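The gene described is brlA (PDE_00087) of the filamentous fungus Penicillium oxalicum, 1 of 9261 gene identifiers in the deposited table. It was taken by its locus tag. The table does not pair tags with gene names, so the name brlA comes from published work on strain 114-2 as recalled. In filamentous fungi of the Aspergillus and Penicillium group, brlA encodes a C2H2 zinc finger transcription factor that switches on asexual sporulation. Upstream developmental regulators activate brlA, and brlA in turn starts a cascade, through abaA and wetA in Aspergillus nidulans, that builds the conidiophore and the conidia. Submerged mycelium with ample glucose usually keeps conidiation low, and starvation or exposure to air raises it.

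The libraries come from mycelium of a strain with nag3 deleted and of the wild-type strain 114-2. Every culture was first grown for 24 h at 30 °C with 2% glucose and was then moved for 24 h to a medium with 2% glucose, with 1% bran and 1% microcrystalline cellulose (bran-cellulose below), or with 2% N-acetylglucosamine (GlcNAc, the building block of chitin). With 2 genotypes and 3 media there were 6 groups, each of 3 libraries. The labels do not say how many transformants the deletion strain stands for, nor whether replicates were grown apart; the p-values therefore reflect the spread of these libraries, which may be technical.

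Levels are FPKM (fragments counted per unit of gene length and per mapped fragment of the library), as the authors deposited them. FPKM sums ran from 920824 to 1083830 per library, and the depth in reads is unknown. Pearson correlations across genes between replicates lay between 0.963 and 0.9895 on log2(FPKM + 1). The table does not name nag3, so the deletion could not be checked by that gene's level. No table used here pairs these tags with abaA, wetA or any other gene of the conidiation pathway, so those genes are not analysed here by name.

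Transcripts of brlA were nearly lost on glucose in the deletion strain and higher in every other group. On glucose, brlA had 1.72, 4.47 and 2.95 FPKM in the deletion libraries, against 46.04, 83.88 and 150.37 FPKM in the wild-type libraries. The groups did not overlap, and the lowest wild-type library stood 10.3-fold above the highest deletion library. In RNA from whole mycelium, fewer cells with the transcript and less transcript per cell cannot be told apart. On bran-cellulose the gene had 286.13, 246.94 and 226.58 FPKM in the deletion, against 301.43, 243.0 and 214.9 FPKM in the wild type. These ranges overlapped nearly throughout. On GlcNAc it had 290.0, 335.15 and 213.02 FPKM in the deletion, against 468.85, 499.31 and 366.6 FPKM in the wild type. All deletion libraries lay below all wild-type libraries there, by a narrow gap.

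**Figure D1:**
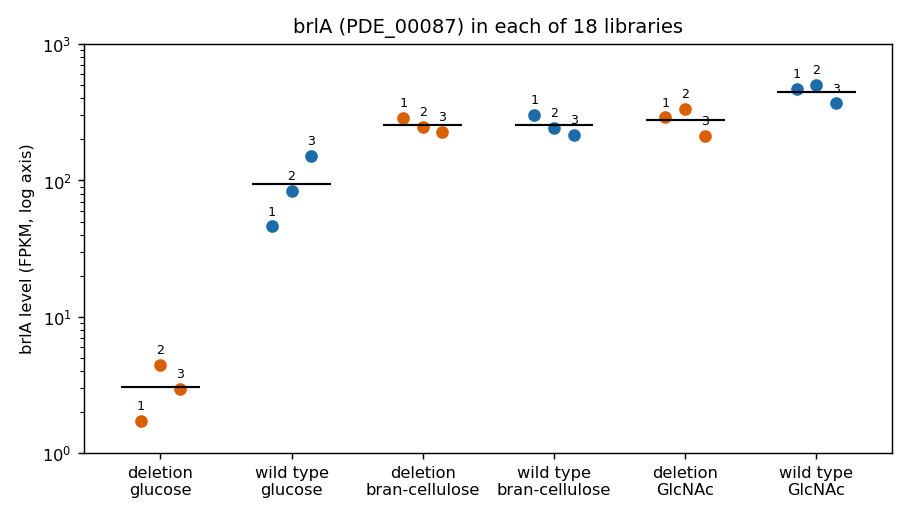
Level of brlA in each library (FPKM, log axis), by genotype and medium, with replicate numbers beside the points and the mean of 3 libraries as a bar. The 3 deletion glucose libraries sit between 1.72 and 4.47 FPKM, and the 15 other libraries at 46.04 FPKM or more.

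Set among all identifiers of the same library, brlA changed from a low transcript to an abundant one. Between 18.3% and 24.6% of identifiers had a lower FPKM in the deletion glucose libraries, against 69.4% to 88.7% in the wild-type glucose libraries. On bran-cellulose the range was 92.6% to 94.1% in the deletion and 91.9% to 94.2% in the wild type. On GlcNAc it was 91.5% to 95.2% in the deletion and 95.04% to 96.4% in the wild type.

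Ordered by mean level, the groups ran from deletion on glucose (3.05 ± 1.38 FPKM, SD, n = 3 here and below) through wild type on glucose (93.4 ± 52.8), wild type on bran-cellulose (253.1 ± 44.1), deletion on bran-cellulose (253.2 ± 30.3) and deletion on GlcNAc (279.4 ± 61.8) to wild type on GlcNAc (444.9 ± 69.5). The 3 middle groups, with means of 253.1 to 279.4 FPKM, overlapped in their libraries. Wild type on bran-cellulose and deletion on GlcNAc were not tested against each other. The lowest wild-type bran-cellulose library (214.9 FPKM) lay above the highest wild-type glucose library (150.37 FPKM). The highest deletion GlcNAc library (335.15 FPKM) lay under the lowest wild-type GlcNAc library (366.6 FPKM).

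Differences were tested with limma over all 8390 genes with at least 1 FPKM in 3 libraries, on log2(FPKM + 1). "Rose" and "fell" refer to calls, which needed a Benjamini-Hochberg adjusted p under 0.05 together with a log2 difference of 1 or more in either direction. On glucose brlA fell in the deletion (log2 difference -4.44, SE 0.34, limma adjusted p = 1.44e-07), and its mean FPKM was 30.7-fold lower. Of all genes tested, 6.14% were called lower and 4.91% higher in that comparison, and 61 genes had a lower log2 difference than brlA. Without any 1 of the 18 libraries the log2 difference stayed between -4.87 and -4.02 and was called each time. The SE of 0.34 comes from 1 estimate of the spread over all groups, and brlA varied most on glucose. In a fit of only the glucose libraries the SE was 0.49 and the limma adjusted p was 0.00827, and brlA was still called.

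On bran-cellulose brlA did not differ detectably between the genotypes (log2 difference 0.01, 95% interval -0.71 to 0.73, limma adjusted p = 1.00). In that comparison 0.191% of genes were called higher and 0.203% lower. The interval rests on the spread shared by all groups (SE 0.34). In a fit of only the bran-cellulose libraries the SE was 0.15. On GlcNAc the log2 difference was -0.68 (95% interval -1.40 to 0.04, limma adjusted p = 0.0907), where 10.7% of all genes were called lower. The spread of brlA in wild-type glucose enters this p, since all groups share 1 estimate of the spread. The adjusted p was 0.0348 without wild-type glucose replicate 1, 0.0353 without wild-type glucose replicate 3 and 0.0306 in a fit of only the 6 GlcNAc libraries. The log2 difference was the same in these fits, below the fold threshold. Other settings gave a higher limma adjusted p: 0.264 without deletion GlcNAc replicate 3 (log2 difference -0.50) and 0.162 under quantile normalization. Over all alternatives run it ranged from 0.0036 to 0.264, and brlA was called in none of them.

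In both genotypes brlA was higher on each of the other media than on glucose, and the step was far greater in the deletion. On bran-cellulose it rose in the deletion by a log2 difference of 6.02 (SE 0.34, limma adjusted p = 1.38e-09) and in the wild type by 1.57 (SE 0.34, limma adjusted p = 0.00116). The ratio of mean FPKM, bran-cellulose over glucose, was 83.1 in the deletion and 2.71 in the wild type. Of all genes, 12.4% were called higher in the deletion and 10.8% in the wild type. On GlcNAc it rose in the deletion by 6.15 (SE 0.34, limma adjusted p = 5.74e-10) and in the wild type by 2.39 (SE 0.34, limma adjusted p = 2.18e-05), where 15.3% and 11.4% of all genes were called higher. The ratio of mean FPKM, GlcNAc over glucose, was 91.7 in the deletion and 4.76 in the wild type. The 2 comparisons within a genotype share the same glucose libraries.

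The fold over wild-type glucose depended on which glucose library was left out. The wild-type bran-cellulose difference was 1.15 without glucose replicate 1 and 1.99 without glucose replicate 3, and the wild-type GlcNAc difference was 1.96 and 2.81. Both were called in each of these fits. In fits of only the groups compared, the wild-type limma adjusted p was 0.0284 for bran-cellulose (SE 0.43) and 0.00546 for GlcNAc (SE 0.43). Both were called there too.

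Between bran-cellulose and GlcNAc brlA was called in neither genotype. In the main fit the difference between these media did not differ detectably between the genotypes (0.69, 95% interval -0.33 to 1.71, limma adjusted p = 0.248). The spread on glucose enters this interval and p. In a fit of only the bran-cellulose and GlcNAc libraries the same difference had an SE of 0.27 and a limma adjusted p of 0.0489. Over all alternatives run the limma adjusted p ranged from 0.0228 to 0.428, and the term was called in none. The log2 difference of bran-cellulose from GlcNAc was -0.12 in the deletion (95% interval -0.84 to 0.60, limma adjusted p = 0.780), with overlapping libraries, and 8.75% of all genes were called lower. In the wild type it was -0.81 (95% interval -1.53 to -0.09, limma adjusted p = 0.0599), with no overlap between libraries, and 6.53% of all genes were called lower. Under median-ratio scaling of the libraries this difference reached -1.01 (limma adjusted p = 0.0213) and was called. It was not called in the 27 other alternatives run, and under quantile normalization it was -0.71 (limma adjusted p = 0.104). The spread on glucose enters the main p here too. Fitted alone, the wild-type bran-cellulose and GlcNAc libraries gave -0.81 with an SE of 0.17 (limma adjusted p = 0.0100). Without wild-type glucose replicate 1 or 3 it was also -0.81 (limma adjusted p = 0.0195 and 0.0198), short of the fold threshold. The limma adjusted p ranged from 0.000924 to 0.159 over all alternatives run.

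The genotype difference in brlA was itself different on glucose. Relative to glucose it was higher by 4.45 on bran-cellulose (SE 0.48, limma adjusted p = 1.42e-05), a term in which 5.38% of all genes were called higher. Relative to glucose it was higher by 3.76 on GlcNAc (SE 0.48, limma adjusted p = 1.40e-05), a term in which 15.3% of all genes were called higher. Between bran-cellulose and GlcNAc it differed by 0.69 (95% interval -0.33 to 1.71, limma adjusted p = 0.248), which was not called; 9.8% of all genes were called higher in that term.

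**Figure D2:**
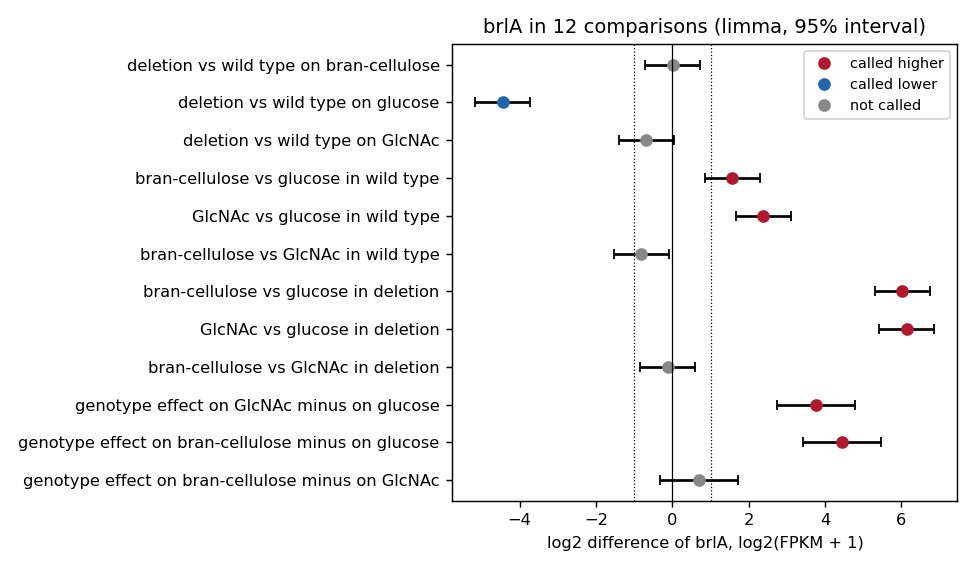
Log2 difference of brlA in 12 comparisons, with 95% intervals from limma; the genotype effect is deletion minus wild type; solid line at 0, dotted lines at the fold threshold of 1 in either direction. The fall on glucose (-4.44) and the 2 steps from glucose in the deletion (6.02 and 6.15) stand far beyond the threshold, and the deletion and wild type on bran-cellulose differ by 0.01.

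The wild-type glucose group was the one in which brlA varied most between replicates. Its highest library stood 3.27-fold above its lowest, against 2.60-fold in deletion glucose, 1.57-fold in deletion GlcNAc and 1.26- to 1.40-fold in the other groups. On the log2 scale its SD was 0.84, and 94.5% of genes tested had a lower SD in that group. In the 5 other groups 74.4% to 88.7% of genes had a lower SD than brlA, so the gene also varied more than most elsewhere. The range of brlA over the wild-type glucose libraries was 1.69 on the log2 scale, against a median of 0.34 over all genes tested, and 4.93% of genes had a wider one.

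Many genes stood in the same order as brlA in these 3 libraries, lowest in replicate 1 and highest in replicate 3. With a range of at least 1 on the log2 scale there were 390 such genes, 4.65% of the 8389 other genes tested. The reverse order held 183 genes with that range, and the 4 remaining orders held 51 to 106 each, while 105 genes had a tie. At any range, 27.4% of genes were in the order of brlA and 22.4% in the reverse order. The 3 libraries had similar totals, with FPKM sums of 955623, 973466 and 969974 and median-ratio size factors of 0.914, 0.932 and 0.937 for replicates 1, 2 and 3. After median-ratio scaling 381 genes met the condition. Replicates 1 and 3 had the lowest correlation of the group across genes (0.963), and the pairs with replicate 2 had 0.981 and 0.975.

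The genes in this order also tended to share the pattern of brlA in the 15 libraries that did not choose them. Of the 390 genes, 149 (38.2%) had a Pearson r over 0.9 with brlA over these 15 libraries, against 5.53% of all other genes tested and 0 of the 183 genes in the reverse order. The median r was 0.80 for the 390 genes, 0.04 for all genes and -0.63 for the reverse order. These are descriptions over libraries that share conditions, with the deletion glucose libraries far below the rest for brlA.

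**Figure D3:**
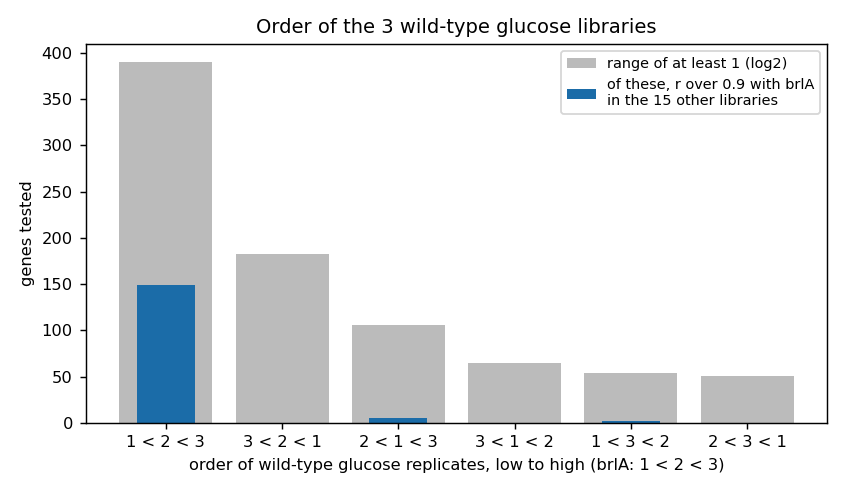
Number of genes tested (grey bars) by the order of their 3 wild-type glucose libraries, among genes with a range of at least 1 on the log2 scale, and those with r over 0.9 with brlA in the other 15 libraries (blue bars). The order of brlA holds 390 genes, 149 of them with such an r, and the reverse order 183 genes, 0 of them with such an r.

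Calls in comparisons without a wild-type glucose library were counted for the 390 genes. The fit holds 1 estimate of the spread per gene over all groups. The wide wild-type glucose range that chose the 390 and the 183 genes therefore enters their calls. Their shares are not on the same footing as those of all genes. Between bran-cellulose and glucose in the deletion, 255 of the 390 rose (65.4%), against 12.4% of all genes, and 35 fell (8.97%), against 11.8%. Between GlcNAc and glucose in the deletion, 210 rose (53.8%), against 15.3% of all genes. These 2 comparisons share the deletion glucose libraries. Between deletion and wild type on GlcNAc, 169 fell in the deletion (43.3%), against 10.7% of all genes, and 23 rose (5.90%), against 16.7%. On bran-cellulose the genotypes differed for 1 of the 390, which rose, where 0.191% of all genes were called higher. Between bran-cellulose and GlcNAc in the deletion, where brlA was at -0.12, 99 of the 390 rose (25.4%), against 11.4% of all genes, and 34 fell (8.72%), against 8.75%. Their median log2 difference there was 0.43. Between bran-cellulose and GlcNAc in the wild type, where brlA was at -0.81, 87 fell (22.3%), against 6.53% of all genes. For the 183 genes in the reverse order the shares turned round: 4.92% rose and 54.1% fell between bran-cellulose and glucose in the deletion, and 35.5% rose and 13.7% fell between deletion and wild type on GlcNAc.

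**Figure D4:**
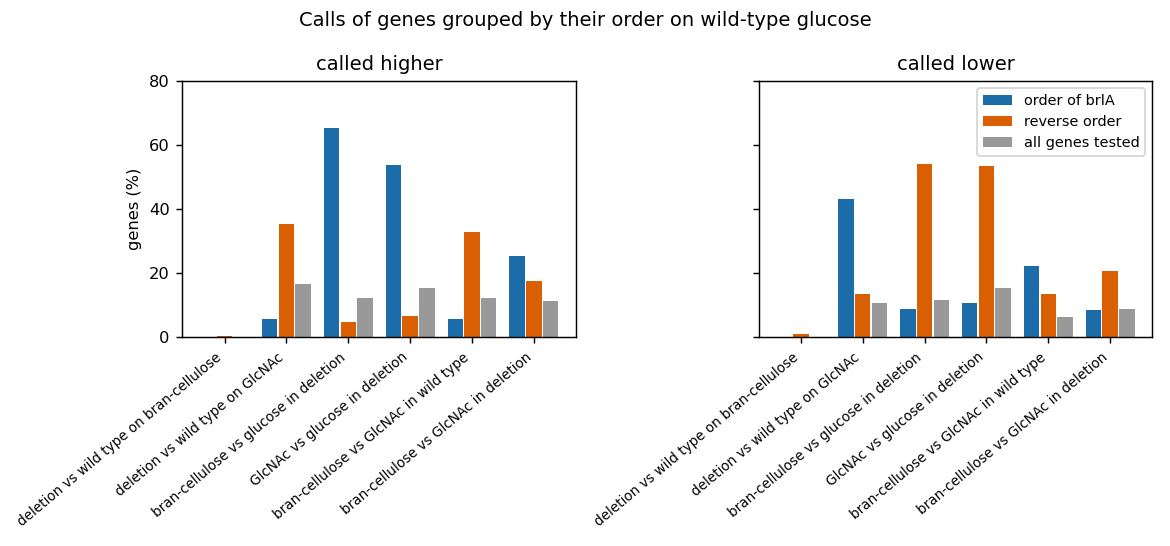
Share of genes called higher (left) and lower (right) in 6 comparisons without a wild-type glucose library, for the 390 genes in the order of brlA, the 183 in the reverse order and all 8390 genes tested. In the deletion 65.4% of the genes in the order of brlA rose on bran-cellulose and 53.8% on GlcNAc relative to glucose, against 12.4% and 15.3% of all genes. The wild-type glucose spread that chose the 390 and the 183 genes enters their calls.

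The 4 identifiers with the widest range in that order, among those that reach 10 FPKM in wild-type glucose, were all listed at 0 in replicate 1. PDE_08471 had 0, 9.92 and 36.19 FPKM in wild-type glucose replicates 1, 2 and 3, and its r with brlA over the other 15 libraries was 0.22. PDE_00449 had 0, 7.81 and 32.65 FPKM there, with an r of 0.41. It was listed at 0 in all deletion GlcNAc libraries, against 105.3 ± 12.3 FPKM in the wild type on GlcNAc, and had 64.5 ± 2.84 FPKM in the deletion and 79.4 ± 11.0 FPKM in the wild type on bran-cellulose. PDE_05505 had 0, 12.67 and 27.87 FPKM, with an r of -0.05, and averaged 53.4 ± 11.7 FPKM in the deletion and 26.8 ± 11.0 FPKM in the wild type on GlcNAc. That genotype difference was not called (log2 difference 1.04, SE 1.17, limma adjusted p = 0.456). In the wild type on bran-cellulose PDE_05505 had 0, 14.15 and 26.5 FPKM. PDE_07603 had an r of 0.95 over the other 15 libraries: it had 0, 5.08 and 24.09 FPKM in wild-type glucose and was listed at 0 in all deletion glucose libraries. In the reverse order the widest ranges were those of PDE_05916 (276.63, 140.16 and 0 FPKM in replicates 1, 2 and 3) and PDE_08734 (170.4, 114.9 and 0), whose r over the other 15 libraries was -0.30 and 0.24. Such swings were not particular to wild-type glucose. PDE_05916 had 291.61, 0 and 324.34 FPKM in the wild type on GlcNAc, and PDE_08734 had 0, 57.57 and 176.31 FPKM in the deletion on glucose.

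The choice could also be turned round, from the other libraries to wild-type glucose. The 100 genes with the highest r with brlA over the 15 libraries outside wild-type glucose all had an r of 0.975 or more. In wild-type glucose 88 of them stood in the order of brlA, against 27.4% of all other genes tested, and 0 in the reverse order. Without any 1 of the 15 libraries the number lay between 87 and 92, and with Spearman's rho in place of r it was 64. Chosen instead over the 12 bran-cellulose and GlcNAc libraries, which leaves out the wide step to deletion glucose, 55 of the 100 highest stood in the order of brlA and 6 in the reverse order. That choice was added after the data were seen.

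In wild-type glucose brlA stood between its levels in deletion glucose and bran-cellulose, and so did most of the genes like it. On a scale from the deletion glucose mean (0%) to the wild-type bran-cellulose mean (100%) of log2(FPKM + 1), brlA stood at 59.8%, 73.9% and 87.8% in wild-type glucose replicates 1, 2 and 3. The medians of the 100 most alike genes were 42.8%, 62.0% and 77.9% in these libraries. Above 0% were 85, 91 and 98 of the 100 genes in replicates 1, 2 and 3, and the lowest gene stood at -33.3% in replicate 1. Under 100% were all 100 genes in replicates 1 and 2 and 98 in replicate 3. Both groups that set the ends of this scale were among the 15 libraries that chose the 100 genes. No share over all genes was computed, so these counts have no background beside them.

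Across all 18 libraries, 282 genes (3.36% of the other genes tested) had an r over 0.9 with brlA and 148 an r under -0.9. Without the deletion glucose libraries 170 genes had an r over 0.9, and over the 12 bran-cellulose and GlcNAc libraries 18 did. The identifiers below carry no gene name in the files, so their function is not described. PDE_01067 was the most alike, with a Pearson r of 0.996 and a Spearman rho of 0.94. It had 1.19, 2.0 and 1.33 FPKM in the deletion glucose libraries, against 21.87, 40.66 and 82.52 FPKM in the wild-type glucose libraries. Its r was 0.98 without the deletion glucose libraries and 0.88 over the 12 bran-cellulose and GlcNAc libraries. In the deletion its log2 difference from the wild type was -4.11 on glucose (SE 0.31, limma adjusted p = 1.21e-07), -0.63 on GlcNAc and -0.14 on bran-cellulose.

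The next 4 identifiers had an r of 0.993 with brlA and differed in their level. PDE_09452 reached 1265 ± 121 FPKM in the wild type on GlcNAc and had 0.48 ± 0.07 FPKM in the deletion on glucose. PDE_00938 moved least, with 49.0 ± 5.55 FPKM in the deletion and 194.0 ± 47.3 FPKM in the wild type on glucose. PDE_10007 had 1.77 ± 0.68 FPKM in the deletion and 79.3 ± 48.9 FPKM in the wild type on glucose. PDE_00808 had 0, 0.06 and 0.12 FPKM in the deletion glucose libraries, against 17.84, 52.37 and 100.36 FPKM in the wild-type glucose libraries. In all 4 the wild-type glucose libraries stood in the order of brlA, which the choice over all 18 libraries partly fixes. Over the 12 bran-cellulose and GlcNAc libraries the r of these 4 was 0.71 to 0.81.

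On GlcNAc 2 of these 4 differed between genotypes where brlA was not called. PDE_10007 fell in the deletion to 160.1 ± 10.2 FPKM, against 432.7 ± 26.6 FPKM in the wild type (log2 difference -1.43, SE 0.30, limma adjusted p = 0.000742). PDE_09452 fell in the deletion to 610.5 ± 92.5 FPKM, against 1265 ± 121 FPKM in the wild type (log2 difference -1.06, SE 0.30, limma adjusted p = 0.00688). Whether these differences are greater than that of brlA was not tested.

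The 2 identifiers least like brlA were high where it was low. PDE_09019 (r = -0.988) had 31.61, 24.41 and 26.03 FPKM in the deletion glucose libraries, against 10.68, 9.6 and 6.23 FPKM in the wild-type glucose libraries. PDE_04828 (r = -0.981) had 96.79, 96.67 and 94.08 FPKM in the deletion glucose libraries, against 28.87, 26.71 and 15.55 FPKM in the wild-type glucose libraries. Both were lowest in wild-type glucose replicate 3, the library with the highest brlA of that group, but those libraries were part of the choice.

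**Figure D5:**
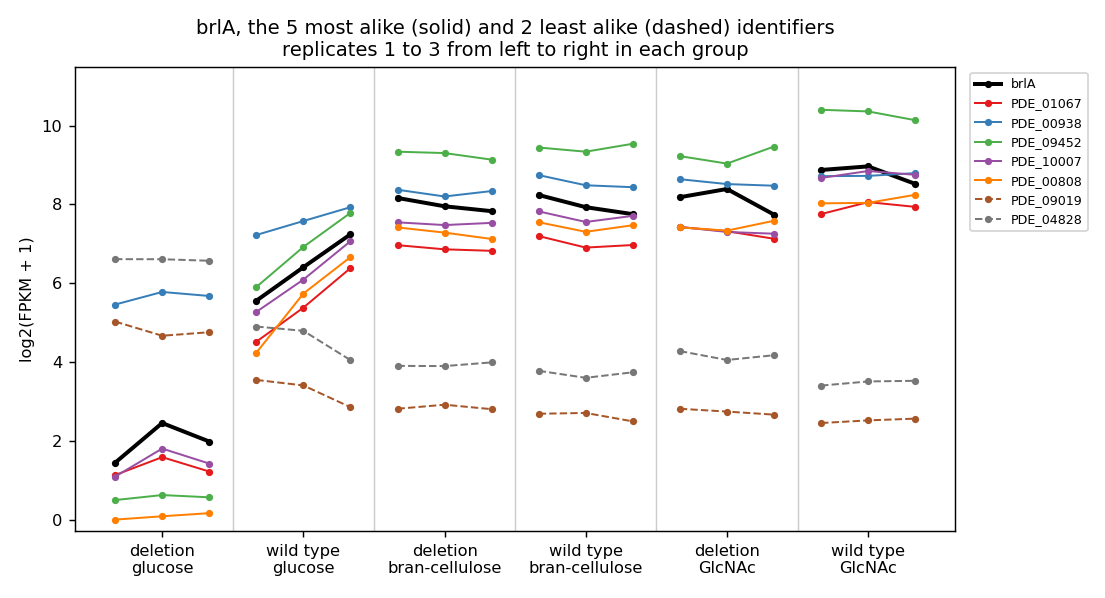
Log2(FPKM + 1) of brlA (black), the 5 most alike identifiers (solid) and the 2 least alike (dashed) in the 18 libraries; lines only join the points of 1 identifier within a group. The 5 alike identifiers are low in deletion glucose, spread in the order of brlA over wild-type glucose replicates 1 to 3, and high in the other 4 groups.

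Of 12 other tags with names recalled from published work, all of them genes of plant polymer breakdown or its regulators, 2 stood in the order of brlA on wild-type glucose, where 27.4% of all other genes did. With a range of at least 1 it was 1 of 12, where 4.65% of all other genes met that condition, so neither count sets these tags apart. The glucoamylase gene amy15A (PDE_01201) was the one with that range (98.46, 110.95 and 199.63 FPKM in replicates 1, 2 and 3). The xylanase regulator gene xlnR (PDE_07674) stood in the order with a narrow range (17.6, 20.81 and 22.0 FPKM). The remaining 10 did not, and the range of each was under 1: the cellulase activator gene clrB (PDE_05999), with the widest of these, had 43.13, 43.64 and 27.66 FPKM. Over all 18 libraries the r of these 12 tags with brlA lay between -0.39 and 0.38.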

How the data were processed

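The authors deposited FPKM values, per the file headers, for 9261 identifiers in 18 libraries. The labels' protocols describe NlaIII and MmeI tag libraries, for which no division by length is needed. No aligner, counter, build or annotation is named: they are not given in the sources used. The reference gene table at hand (assembly ASM172317v3) is of another strain, and 0 identifiers matched it, so no sequence or position of brlA is given.

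Values were used as deposited. The filter asked for 1 FPKM or more in 3 or more libraries, which 8390 genes passed and 871 did not. limma 3.58.1 in R 4.3.3 fitted 1 mean per group over all 18 libraries on log2(FPKM + 1) with an intensity trend, two-sided, with Benjamini-Hochberg adjustment over the 8390 genes in each of 12 comparisons. Fold changes on this scale understate those of low genes. An exact permutation test of 3 against 3 cannot go below 0.1 and was not used. The fit was tested on simulated data.

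Named identifiers are the 5 highest and 2 lowest in r among genes with at least 10 FPKM in 3 libraries, and the 4 (same order) and 2 (reverse order) with the widest range on wild-type glucose that reach 10 FPKM there. The gene, lists and rules were chosen with earlier results of these data known. Replicate numbers are shared between groups, but same-numbered libraries correlated over 0.1 in their deviations in only 6 of 45 pairs (r from -0.17 to 0.29), so they were not treated as pairs. Alternatives were other pseudocounts, filters, scalings, weights and fits, Spearman's rho in place of Pearson's r, other list sizes, and leaving out each library. Figures were drawn with matplotlib 3.10.9.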

Additional observations from a re-analysis of the deposited data

Results flagged for a closer look

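The genotype difference of brlA differed between media by a test of that difference. It was higher by 4.45 on the log2 scale on bran-cellulose than on glucose (limma adjusted p = 1.42e-05, and 7.94e-08 to 0.000584 over its alternatives). It was higher by 3.76 on GlcNAc than on glucose (limma adjusted p = 1.40e-05, and 1.64e-07 to 0.000338 over its alternatives). Both terms rest on the same 6 glucose libraries, in which all 3 deletion libraries were below all 3 wild-type libraries.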

How the results depend on the processing

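The 7 calls of brlA kept their direction and were called under each alternative run. The genotype difference on bran-cellulose, 0.01 on the log2 scale and not called, was -0.00074 under median-ratio scaling and lay between -0.10 and 0.14 without any 1 library. The bran-cellulose difference from GlcNAc in the deletion ran from -0.31 to 0.020 in the same way, and that in the wild type was called only under median-ratio scaling (-1.01). Between the genotypes on GlcNAc that scaling shifted the median gene by -0.20 and gave a brlA difference of -0.93. With a replicate block the brlA difference on glucose was -4.44 (limma adjusted p = 1.08e-06), and the block changed no call of brlA. With a range of at least 2, 145 genes stood in the order of brlA. Over the 12 libraries outside glucose, 55.0% of the 100 most alike genes did, and with Spearman's rho over 15 libraries 64.0%. The number of reads behind each value is unknown, which limits what can be said of levels near 0.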

Other observations

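Of the 10 tags numbered next to PDE_00087, 5 on each side, 8 were analysed and 7 passed the filter. Positions are not in the files, so it is not known that these genes adjoin brlA. On glucose 1 of the 7 fell in the deletion and 1 rose, where 6.14% and 4.91% of all genes did. They are named after their values were seen. PDE_00082 had 4.64, 5.46 and 7.13 FPKM in the deletion glucose libraries, against 38.24, 90.31 and 220.56 FPKM in the wild-type glucose libraries (log2 difference -3.80, SE 0.40, limma adjusted p = 4.87e-06), and stood in the order of brlA there. PDE_00092 had 581.17, 566.22 and 543.49 FPKM in the deletion glucose libraries, against 151.16, 144.86 and 152.65 FPKM in the wild-type glucose libraries (log2 difference 1.91, SE 0.11, limma adjusted p = 7.73e-09), with no such spread.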
